A study of Homo sapiens with 2 samples.

Results

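The genes described here encode voltage-gated and other potassium channels, voltage-gated calcium channels and voltage-gated sodium channels, together with their auxiliary subunits. They were taken by symbol, as protein-coding genes whose name starts with KCN, with CACN, or with SCN followed by a number. The rule gave 135 genes of 20162 protein-coding genes in GENCODE 44 on GRCh37 (hg19), with 95 potassium, 26 calcium and 14 sodium channel genes. An annotated canonical transcription start site (TSS) on this build was present for 134 of them and for 19881 protein-coding genes. The exception was SCN8A, which is described apart. The rule used names alone and no measured value.

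The data are one list of LSD1 peaks from chromatin immunoprecipitation and sequencing (ChIP-seq) in PC-3M-luc, a human prostate carcinoma line that carries a luciferase marker and goes back, through its metastatic variant PC-3M, to PC-3. The LSD1 arm and the input DNA arm had 1 library each, from cells of the Control genotype at passage 17 to 20 in medium with serum, with an Abcam antibody against LSD1. The 20110 peaks carry a position and a score, which is the authors' value per peak and serves here to rank and describe. Sequencing depth is unknown for both libraries. No p-value was computed, because the arms have no replicates, and bracketed intervals are exact 95% binomial (Clopper-Pearson) intervals that cover counting error only. Genes of one family also share ancestry and sometimes a locus, so they are not independent draws. Where a gene is said to lack a peak, no peak of the deposited list lay there, and LSD1 below the calling threshold may still have been present.

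LSD1 (KDM1A) removes methyl groups from histone H3 lysine 4 and works with the corepressor CoREST (RCOR1). CoREST is brought to DNA by REST, a zinc finger repressor that keeps neuronal genes, ion channel genes among them, silent outside the nervous system. Ion channels set the membrane potential and carry the potassium, calcium and sodium currents of excitable cells. Epithelial and carcinoma cells use a smaller set of them in volume control, secretion and calcium signalling.

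Elements that match REST were more frequent in channel genes than in other genes, and few lay under LSD1 peaks. The search took CAGCACC, any 2 bases, then GGACAG, on both strands. Over the genes with 1 kb either side, 19 of 134 channel genes (14.2%) held a match, against 481 of 19881 protein-coding genes (2.42%). Channel genes are longer, and per length the difference was smaller, at 0.973 matches per Mb of channel genes against 0.381 per Mb of all protein-coding genes. Of the 20 matches in channel genes, 4 lay under an LSD1 peak (20.0%), against 116 of 816 in the genome (14.2%) and 91 of 539 counted over all protein-coding genes (16.9%). These shares lie close together, and 4 matches cannot separate them.

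Of the 4 matches under peaks, 3 are shown. Each lay near the middle of its peak, and so did the other one, which was within 1 kb of a start site. Capitals mark the 15 bases of the element, with 10 bases of flank on each side, in the orientation of the motif, from GRCh37.
KCNAB2, chr1:6112658-6112692, plus strand: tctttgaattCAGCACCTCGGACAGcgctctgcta
CACNA1B, chr9:140779182-140779216, minus strand: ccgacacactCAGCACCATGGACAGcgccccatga
CACNA1H, chr16:1238866-1238900, plus strand: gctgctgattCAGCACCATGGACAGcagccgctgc

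The centre of the element was 8 bp from the centre of an 884 bp peak in KCNAB2, 47 bp from that of a 2068 bp peak in CACNA1B and 14 bp from that of an 818 bp peak in CACNA1H. These 3 peaks were weak, with scores of 51.59 at KCNAB2, 69.6 at CACNA1B and 60.33 at CACNA1H, where the lowest score of the list is 50. KCNAB2 encodes a beta subunit of voltage-gated potassium channels, CACNA1B the pore of neuronal N-type calcium channels and CACNA1H the pore of a T-type calcium channel. The 3 elements shown lay inside the genes, 6.72 kb from the canonical TSS in KCNAB2, 6.96 kb in CACNA1B and 35.8 kb in CACNA1H. Over the genome, 77 of the 116 elements under peaks (66.4%) lay within 100 bp of the peak centre, and the peaks over them had a median score of 95.6. Of the 66 peaks at channel genes, 4 held the element (6.06%), against 107 of all 20110 peaks (0.532%). Among peaks scoring below 100, the values were 4 of 33 (12.1%) at channel genes and 59 of 6071 (0.972%) in the whole list. Both channel shares rest on the same 4 elements. Channel genes also held more elements per Mb than all protein-coding genes (0.973 against 0.381). The difference in these shares was not tested.

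The next 5 elements lay within about 1 kb of a start site and had no peak over them. They are shown because they match the same letters.
SCN2A, chr2:166094986-166095020, plus strand: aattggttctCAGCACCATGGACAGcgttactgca
SCN3B, chr11:123524768-123524802, plus strand: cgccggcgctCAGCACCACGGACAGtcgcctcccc
KCNV2, chr9:2718225-2718259, minus strand: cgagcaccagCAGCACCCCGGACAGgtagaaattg
KCNH4, chr17:40332295-40332329, minus strand: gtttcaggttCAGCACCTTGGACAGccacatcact
CACNA1B, chr9:140773233-140773267, minus strand: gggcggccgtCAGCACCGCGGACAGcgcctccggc

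SCN2A, a sodium channel pore gene of brain neurons and a classic REST target, had its element at -928 bp from the canonical TSS, and the nearest LSD1 peak was 396 kb from it. The elements of SCN3B (a sodium channel beta subunit), KCNV2 and KCNH4 (voltage-gated potassium channel subunits) lay 69.4 kb, 95.2 kb and 130 kb from the nearest peak. In CACNA1B the element near the start had its nearest peak 4.97 kb away, which is the peak over the second element of the same gene. REST itself had a start-site peak (score 158.07), as did RCOR1 (score 3100, a value that recurs among the highest peaks). Both promoters are in the CpG-rich class defined below, where 77.1% of the promoters of all protein-coding genes had one.

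**Figure D1:**
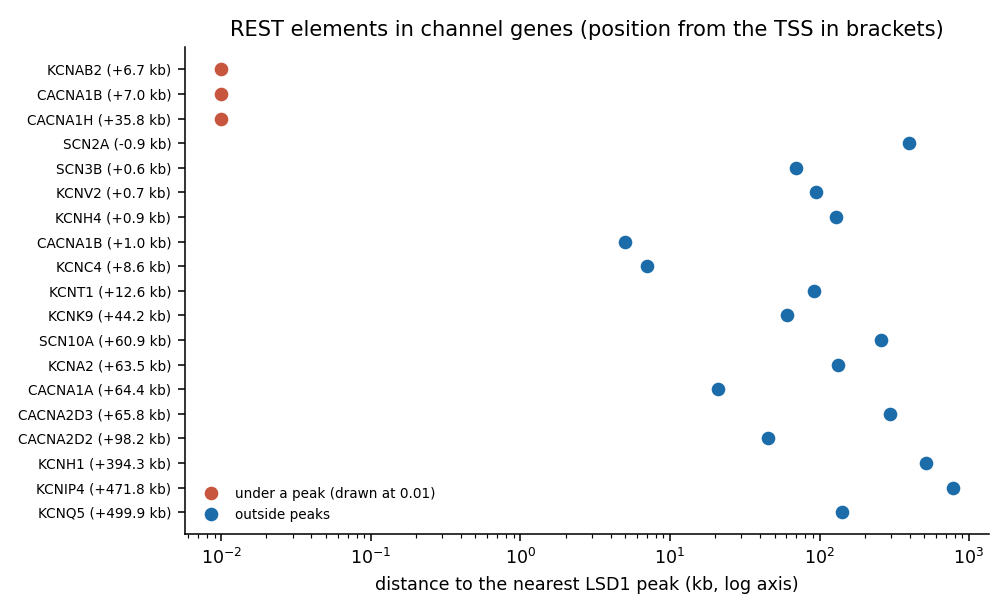
Each point is one of 19 REST elements in channel genes, with its distance to the nearest LSD1 peak in kb on a log axis and its position relative to the TSS in brackets. The 3 shown elements under a peak are drawn in red at the left edge, and the nearest of the others is 4.97 kb from a peak, in CACNA1B.

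Start sites of channel genes had LSD1 peaks far less often than those of other genes. Of 134 channel genes, 25 had a peak with at least 1 base inside 1 kb of their canonical TSS (18.7%, interval 12.5 to 26.3), against 55.6% of all protein-coding genes. The difference was present in both promoter classes. A promoter counted as CpG-rich when, over 1000 bp centred on the TSS, GC content exceeded 55% and CpG dinucleotides exceeded 0.65 of the number its base composition predicts, and as CpG-poor otherwise. Among 73 CpG-rich channel promoters 20 had a peak (27.4%, interval 17.6 to 39.1), where the share in all CpG-rich promoters was 77.1%. Among 61 CpG-poor channel promoters 5 had a peak (8.20%, interval 2.72 to 18.1), where the share was 27.7%. At the shares of their promoter classes, the channel genes would have had 73.2 genes with a peak rather than 25.

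The difference was also present at each level of GC content within the CpG-rich class. At a GC content of 65 to 70%, 7 of 21 channel promoters had a peak (33.3%) against 76.2% of all such promoters, and at 70 to 75%, 7 of 25 (28.0%) against 72.1%. Above 75% the values were 3 of 14 (21.4%) and 68.8%. The lower levels held few channel promoters, with 1 of 3 (33.3%) against 84.1% at 55 to 60%, and 2 of 10 (20.0%) against 80.0% at 60 to 65%. Inside the class, channel genes with and without a peak were alike in composition, with a median GC content of 70.1% and 70.2% and a median CpG ratio of 0.823 and 0.828. Their median gene lengths were 70.7 kb and 72.5 kb. Start sites shared with another gene were rare: another protein-coding canonical TSS lay within 1 kb at 3 of 134 channel genes, which are SCN11A, KCNQ1 and KCNAB3. Without those 3, a peak was present at 24 of 131 (18.3%), against 50.7% of all protein-coding genes whose start stood alone.

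The 3 families did not separate from each other. Potassium channel genes had a start-site peak at 17 of 95 (17.9%, interval 10.8 to 27.1), calcium channel genes at 7 of 26 (26.9%, interval 11.6 to 47.8) and sodium channel genes at 1 of 13 (7.69%, interval 0.195 to 36.0). These intervals overlap, and each lies below the share of all protein-coding genes.

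**Figure D2:**
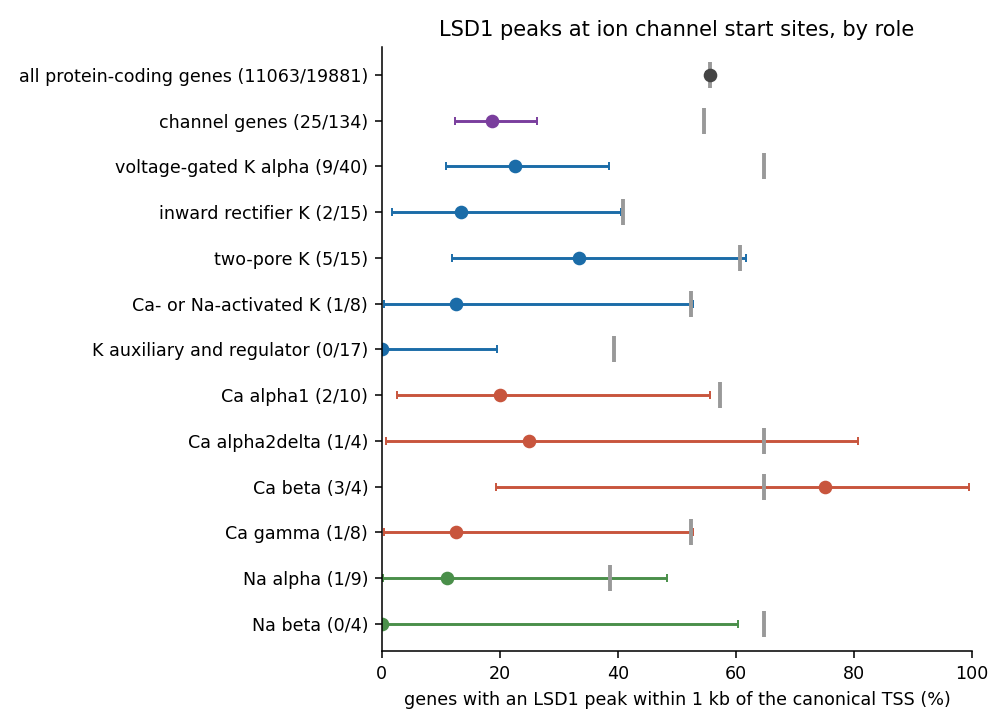
Points give the percent of genes with an LSD1 peak within 1 kb of the canonical TSS, with exact 95% intervals as bars, for all protein-coding genes, channel genes and the 11 roles, with counts in brackets. Grey ticks mark the percent that the CpG classes of each group's promoters would give at the shares of all genes. The channel genes stand at 18.7% against a tick at 54.6%. Ca beta is the only role above its tick, with 3 of 4 genes where the classes would give 2.59.

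The peaks that did lie at channel start sites were weak. Their scores ran from 50.3 to 601.87 with a median of 111, while the highest-scoring start-site peak of all genes that had one had a median of 465 and an upper quartile of 841. A score below 100 was found at 12 of the 25 (48.0%) against 868 of 11063 (7.85%). SCN11A was the only channel gene above the median of all genes. The peaks were also somewhat narrower, at a median of 1628 bp against 1955 bp wide.

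**Figure D3:**
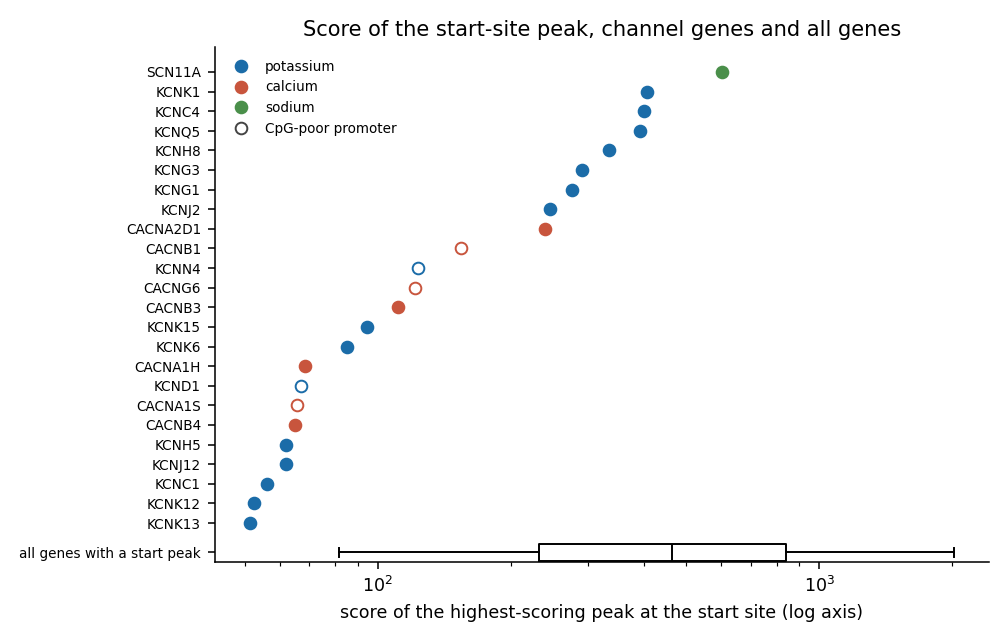
Each point is the score of the highest-scoring start-site peak of a channel gene, for the 24 genes with a score of at least 51, on a log axis, coloured by family and open for a CpG-poor promoter. The box shows the quartiles of all genes with a start-site peak and its whiskers the 5th and 95th percentiles, 81.7 and 2015, and all points but that of SCN11A lie left of the median of 465.

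Voltage-gated potassium channel pore subunits, which repolarise the membrane after depolarisation, had a start-site peak at 9 of 40 genes (22.5%, interval 10.8 to 38.5). KCNC4 (Kv3 type, fast repolarisation) led with a 2330 bp peak of score 399.81 over its TSS (chromosome 1, 110752163 to 110754492). KCNQ5, an M-current channel gene, followed with 391.58 (chromosome 6, 73330945 to 73333426). KCNH8, of the ether-a-go-go family, had a peak of 333.09 that ended 721 bp upstream of the TSS (chromosome 3, 19187468 to 19189281). KCNG3 and KCNG1, which encode silent subunits that modify other channels, had peaks of 289.41 and 274.78. The KCNG3 peak also lay within 1 kb of a start of MTA3, a NuRD subunit gene on the opposite strand.

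Other peaks of this group were near the threshold, with scores of 66.89 at KCND1, 62.13 at KCNH5 and 56.07 at KCNC1. None of the 8 KCNA genes of Shaker-type channels had a peak, and neither did KCNH1 or KCNH2, ether-a-go-go channels studied in tumour cells. The nearest peak was 124 kb from the KCNH1 start and 49.4 kb from that of KCNH2, and it was 266 kb from that of KCNA3, the lymphocyte channel. KCNQ1, the cardiac and epithelial channel whose start lies 494 bp from that of TRPM5, had no peak nearer than 39.4 kb.

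Tandem-pore channels, which carry the background leak current, had 5 of 15 (33.3%, interval 11.8 to 61.6). KCNK1 had the highest score of any channel start not shared with another gene, 407.71, in a 2874 bp peak over its TSS (chromosome 1, 233748899 to 233751772). KCNK15 and KCNK6 had scores of 94.4 and 85.08. KCNK12 had 52.55, and KCNK13 had 51.36 in a peak upstream of the start. KCNK9, an acid-sensitive leak channel gene amplified in some carcinomas, had no peak, the nearest being 16.8 kb away.

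Inward rectifiers, which hold the resting potential, had 2 of 15 (13.3%, interval 1.66 to 40.5). These were KCNJ2, with a score of 246 over its TSS (chromosome 17, 68164457 to 68166430), and KCNJ12, with a 638 bp peak of score 61.85. KCNJ3, a subunit of G protein-gated channels, lay 826 kb from the nearest peak, the farthest of all channel genes.

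The KCNMA, KCNN, KCNT and KCNU genes, mostly of channels opened by intracellular calcium or sodium, had 1 of 8 (12.5%, interval 0.316 to 52.7). It was KCNN4, the intermediate-conductance calcium-activated channel of epithelial and blood cells, with a 1209 bp peak of score 123.12 over a CpG-poor promoter (chromosome 19, 44284656 to 44285864). KCNMA1, the large-conductance channel gene that is amplified in some prostate cancers, had a CpG-rich promoter without a peak. Auxiliary and regulatory subunits of potassium channels (KCNAB, KCNE, KCNIP, KCNMB and KCNRG) had 0 of 17, with an upper interval bound of 19.5%. Of these 17 promoters 4 were CpG-rich.

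Calcium channel beta subunits, which bring the pore to the membrane, had peaks at 3 of 4 genes (75%, interval 19.4 to 99.4). At the shares of their promoter classes the value would be 64.7%. These were CACNB1 with 154.16, CACNB3 with 111.05 and CACNB4 with 64.84, each over the TSS, while CACNB2 had none. At CACNB3 a second, higher-scoring peak (749.45) had its midpoint at -3.42 kb from the canonical TSS, at another start site of the gene. The pore-forming alpha1 genes had 2 of 10 (20.0%, interval 2.52 to 55.6), and neither peak covered the TSS. The CACNA1H peak (68.58) began 868 bp inside the gene, and the 4255 bp CACNA1S peak (65.7) lay upstream, over ASCL5, and was the widest of the 25. The alpha2delta genes had 1 of 4, CACNA2D1, the gabapentin-binding subunit gene, with 238.98 over its TSS (chromosome 7, 82071835 to 82073782). The gamma genes had 1 of 8, CACNG6, with 121.55.

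Sodium channel genes were nearly free of peaks. Of 9 pore-forming genes with a canonical TSS, 1 had a start-site peak (11.1%, interval 0.281 to 48.2), and of 4 beta subunit genes none had one. The exception was SCN11A, a channel gene of pain-sensing neurons, with a 1628 bp peak of score 601.87 (chromosome 3, 39092718 to 39094345). Its start lies 72 bp from that of WDR48, a deubiquitinase cofactor gene on the opposite strand, and the peak covers both, so it cannot be assigned to SCN11A. SCN9A, a channel gene studied in metastatic carcinoma cells, had none, with the nearest peak 34.8 kb from the start. SCN8A, which has no canonical TSS on this build, had a peak of 297.14 at one of its 7 annotated start sites (chromosome 12, 51983152 to 51986575) and another of 86.56 inside the gene. It is in none of the counts above.

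**Figure D4:**
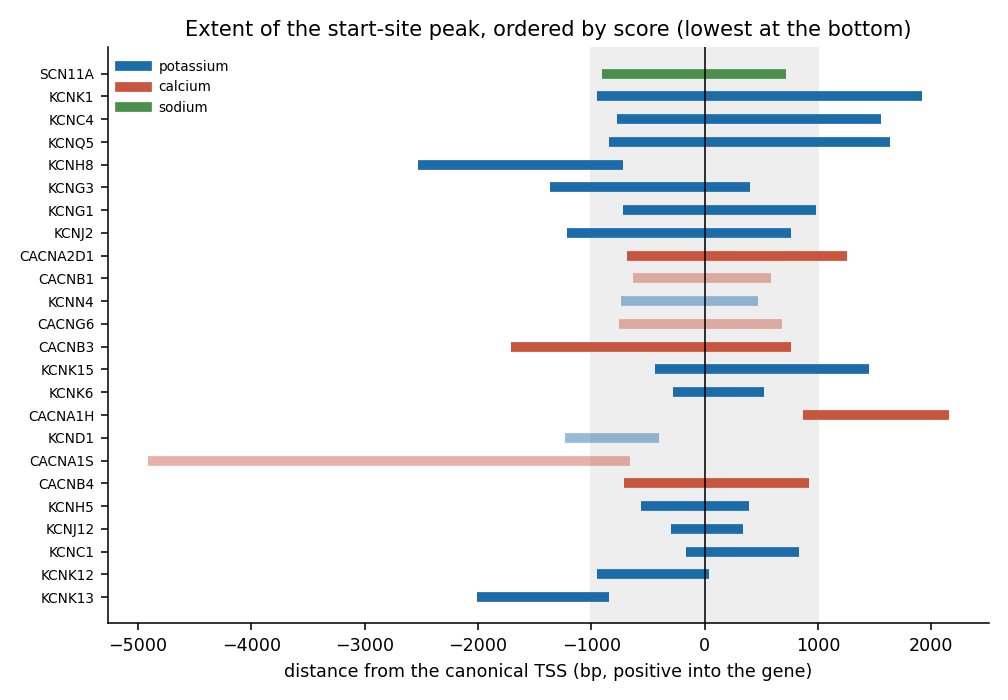
Bars show the extent of the highest-scoring start-site peak of the 24 channel genes with a score of at least 51, in bp from the canonical TSS, positive into the gene, ordered by score and paler for CpG-poor promoters. The grey band is the 1 kb window, and 5 of the bars do not reach the TSS.

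The count depended on the window, with 20 genes where the peak had to cover the TSS, 25 within 1 kb and 32 within 5 kb. The peaks of CACNA1H and KCNK13 began 868 bp and 848 bp from the TSS. The nearest peaks just outside 1 kb were 1.04 kb from the KCNAB3 start (score 384.58), 1.53 kb from that of KCNH7 (141.18) and 1.59 kb from that of KCNJ6 (63.34). The 109 channel genes without a start-site peak had a median distance to the nearest peak of 82.6 kb (quartiles 24.9 and 199), against 74.0 kb (quartiles 23.9 and 206) for the 8818 protein-coding genes without one.

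The next 3 promoters are shown as examples of a shared start, of a CpG-rich start and of a CpG-poor start, each with a peak. They run from 250 bases before to 50 after the canonical TSS, 5′ to 3′, from GRCh37. Capitals mark matches on either strand to the letters of SP and KLF factors, ETS factors, NRF1, MYC and related factors, AP-1 and the TATA box, which are spelled out with their counts after the sequences.
SCN11A, chr3:39093386-39093685, minus strand: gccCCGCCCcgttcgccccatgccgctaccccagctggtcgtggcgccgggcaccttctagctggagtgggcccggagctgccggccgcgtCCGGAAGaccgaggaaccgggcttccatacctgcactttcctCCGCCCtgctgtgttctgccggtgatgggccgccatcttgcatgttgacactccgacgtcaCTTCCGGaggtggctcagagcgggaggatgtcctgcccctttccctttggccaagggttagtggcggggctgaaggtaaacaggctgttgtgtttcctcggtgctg
KCNK1, chr1:233749602-233749901, plus strand: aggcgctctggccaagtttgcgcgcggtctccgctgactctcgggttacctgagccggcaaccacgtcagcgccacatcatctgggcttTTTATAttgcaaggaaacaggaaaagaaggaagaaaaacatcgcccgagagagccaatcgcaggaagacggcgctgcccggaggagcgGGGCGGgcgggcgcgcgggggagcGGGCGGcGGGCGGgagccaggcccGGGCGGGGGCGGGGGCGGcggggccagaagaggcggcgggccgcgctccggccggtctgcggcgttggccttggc
KCNN4, chr19:44285076-44285375, minus strand: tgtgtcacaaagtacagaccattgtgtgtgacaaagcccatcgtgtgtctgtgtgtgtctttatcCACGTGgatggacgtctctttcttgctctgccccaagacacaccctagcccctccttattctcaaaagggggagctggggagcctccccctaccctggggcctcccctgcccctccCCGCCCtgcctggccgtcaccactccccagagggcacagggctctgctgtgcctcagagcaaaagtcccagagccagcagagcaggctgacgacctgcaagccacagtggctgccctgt

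The SCN11A promoter holds 2 ETS matches and 2 matches to the SP and KLF letters, and it is the start shared with WDR48. The KCNK1 promoter has 38 CpG dinucleotides in 300 bases. It holds 6 matches to the SP and KLF letters and 1 TATA match, on the opposite strand. The KCNN4 promoter has 6 CpG dinucleotides, 1 match to the SP and KLF letters and 1 MYC match.

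Channel promoters seldom held the letters of ETS factors and of NRF1. The ETS letters, CCGGAAG, were found in 2 of 73 CpG-rich channel promoters (2.74%), against 2062 of 11254 CpG-rich promoters of all genes (18.3%), and both of the 2 had a peak. They were SCN11A, whose peak also covers the start of WDR48, and KCNK15, whose peak was weak (score 94.4). Of all CpG-rich promoters, those with a peak held them in 21.7% and those without in 7.01%. The NRF1 letters, GCGCATGCG, were in 0 of 134 channel promoters and in 2.71% of all promoters. The SP and KLF letters, GGGCGG, were about as frequent as elsewhere, in 64 of 73 CpG-rich channel promoters (87.7%) and in 83.3% of all CpG-rich ones. They were present in 19 of the 20 CpG-rich channel promoters with a peak and in 45 of the 53 without. Of all CpG-rich promoters, 83.0% of those with a peak and 84.4% of those without held them. The MYC letters, CACGTG, were in 7 of 134 channel promoters (5.22%), against 8.76% of all promoters. The AP-1 letters, TGANTCA, were in 4 (2.99%), against 5.40%. The TATA letters, TATAAA, were in 5 (3.73%), against 9.62%. The REST letters were in none of the 134 and in 0.0654% of all promoters. A match is a description of the letters and marks no binding.

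Non-coding starts on the opposite strand were counted next. A lncRNA TSS on the other strand lay within 1 kb at 5 of the 25 channel genes with a peak (20.0%) and at 10 of the 109 without (9.17%). The 5 were CACNB4, KCNC4, KCNJ2, KCNK15 and KCNQ5, named after their values were seen. Over all protein-coding genes the shares were 19.5% with a peak and 8.0% without, close to those of the channel genes.

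The share of genes with a body peak was lower in channel genes than in all genes, but not clearly so. Outside 1 kb of the canonical TSS, 28 of 134 channel genes (20.9%) held 41 peaks, against 28.2% of all protein-coding genes (interval 14.4 to 28.8 for channel genes). The interval includes the share of all genes. Away from every start of the gene and of other protein-coding genes, the shares were 16.4% (22 of 134) and 17.3%. Per 100 kb of gene body there were 0.204 peaks in channel genes and 0.729 in all genes. A peak in the body and none at the start was found at 24 channel genes (17.9%), against 6.58% of all protein-coding genes. Counted only over genes without a start-site peak, 24 of 109 channel genes (22.0%) and 1308 of 8818 genes (14.8%) had a body peak. Channel genes are long, with a median of 66.1 kb against 27.6 kb. Neither place had a peak in 85 channel genes (63.4%), against 37.8% of all protein-coding genes.

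Within each of 5 classes of gene length, channel genes had a lower share with a peak both at the start and in the body, and the body shares lay closer together. For the body, the interval of the channel genes included the share of all genes in every class but that of up to 10 kb. For genes of 100 to 300 kb, a start-site peak was present at 16.1% of 31 channel genes and 62.1% of all, and a body peak at 25.8% and 34.1%. For genes over 300 kb the values were 16.0% of 25 and 41.4% at the start, and 28.0% and 31.3% in the body, with 0.106 and 0.0987 body peaks per 100 kb. Of 20 channel genes of up to 10 kb none had a body peak, against 19.0% of all such genes. In the shorter classes the channel genes had fewer body peaks per 100 kb, at 0 against 6.31 up to 10 kb, 1.80 against 3.01 from 10 to 30 kb, 0.470 against 1.09 from 30 to 100 kb and 0.208 against 0.426 from 100 to 300 kb.

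**Figure D5:**
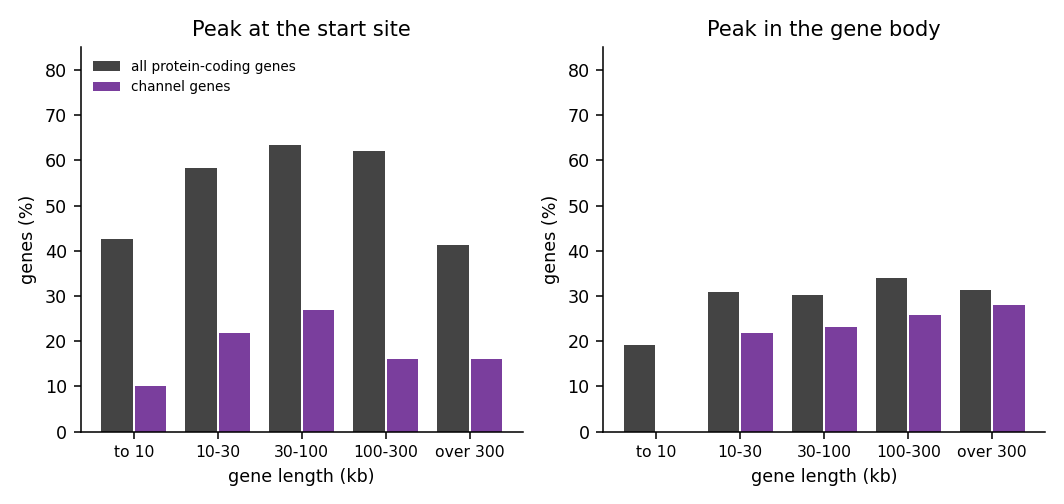
Bars give the percent of genes with a peak at the start site (left) and in the gene body (right) by gene length in kb, for all protein-coding genes and channel genes. The channel bars are lower in all 5 classes in both panels, from 10% against 42.6% up to 10 kb to 16.0% against 41.4% over 300 kb at the start, and from 0% against 19.0% to 28.0% against 31.3% in the body.

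Many of the strongest body peaks lay at start sites of other genes. Of the 41 peaks, 6 lay within 1 kb of a start of another protein-coding gene, 10 at another start of the same gene and 27 at neither, with 2 counted in both of the first groups. The peak in CACNA1D (719.79), an L-type calcium channel gene, was at the start of DCP1A, and that in CACNA1C (519.54) at the start of DCP1B, both mRNA decapping genes. Likewise the KCNN1 peak of 1105 was at ARRDC2, the KCNJ10 peak (639.97) at PIGM and the KCNAB2 peak of 450.23 at NPHP4. These peaks are counted by position and cannot be assigned to the channel gene.

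Peaks at alternative starts of the same gene added 7 genes to the 25. Among them were KCNAB2 (450.23), KCNH3 (299.44, also at MCRS1), CACNA1A (276.23), KCNIP2 (222), CACNA2D4 (83.42) and KCNIP3 (73.6). CACNA1A, the P/Q-type calcium channel gene, had 6 body peaks, the most of any channel gene, of which 3 lay at alternative starts. The highest, 276.23, was at a start -127 kb from the canonical one.

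Of the 27 body peaks away from any start of a protein-coding gene, the highest was in CACNG8, a regulator of AMPA receptors. It was 9177 bp wide with a score of 1106.43 and overlapped the microRNA gene MIR935 (chromosome 19, 54480107 to 54489283). It lay in the 3′ part of CACNG8 and did not reach the 3′ end. The locus of CACNG7, CACNG8 and CACNG6 held 5 peaks in 103 kb. KCNMA1 had 2 wide intronic peaks, 7653 bp and 6331 bp with scores of 96.68 and 153.21, at 134 kb and 124 kb into the gene. CACNB3 had a 3745 bp peak (318.88) over its 3′ end, where it also overlaps DDX23.

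Neighbouring channel genes were also counted by locus. Channel genes within 200 kb of each other formed 16 loci, and 8 of these held no peak at all. No comparable loci of other genes were counted, so these values cannot say whether 8 of 16 is many or few. The 63.4% of channel genes without a peak at start or body is not a like measure. It is counted per gene and includes the genes of these loci. Among the 8 were KCNA10, KCNA2 and KCNA3 in 158 kb of chromosome 1, KCNA6, KCNA1 and KCNA5 in 237 kb of chromosome 12, CACNG5, CACNG4 and CACNG1 in 222 kb of chromosome 17, and SCN3A and SCN2A in 305 kb of chromosome 2. The SCN1A, SCN9A and SCN7A locus of 627 kb held 1 peak (92.38), inside SCN7A. Members of one locus share their surroundings, so these are 16 loci rather than independent genes.

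A fixed list of 47 other genes held REST, RCOR1 and channel and ion-transport genes of 3 kinds. The share of all protein-coding genes with a start-site peak was 55.6%, and that of CpG-rich promoters was 77.1%. Plasma membrane channels outside the 3 families (HCN, SCNN, ASIC, CATSPER and the NALCN complex) had a start-site peak at 4 of 19 (21.1%, interval 6.05 to 45.6). Of their 12 CpG-rich promoters 3 had a peak. Genes of intracellular calcium release, store-operated entry, lysosomal channels, pumps and exchange had 14 of 19 (73.7%, interval 48.8 to 90.9). This interval includes the share of all genes. Of these 19 promoters 15 were CpG-rich, and 11 of the 15 had a peak. ATP2A2, the endoplasmic reticulum calcium pump, had a score of 1609.8, ORAI3, a store-operated channel, 1474.39, and ITPR1 and ITPR3, inositol trisphosphate receptors, 1072.32 and 825.9. The CLCN chloride channels and exchangers had 5 of 7 (interval 29.0 to 96.3), with 1914.59 at CLCN2. The 5 were the CpG-rich promoters of this group. All 3 ryanodine receptor genes and SLC8A1, the plasma membrane sodium-calcium exchanger, had none.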

How the data were processed

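The score of each peak is as deposited by the authors in a list of positions and scores without a header. Its scale is not stated, and values run from 50 to 3226.07. Per the labels, reads were mapped to hg19 with Bowtie2, and the submitters' processing notes name MACS 1.41 and, beside hg19, the mouse build mm10. All peaks lay within the 24 hg19 chromosomes, with 0 past a chromosome end. Whether the input served as the control in peak calling, and the duplicate handling and depth, are not given in the sources used here.

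Peak starts were converted to 1-based positions and joined to GENCODE 44 on GRCh37 in pandas 2.3.3 under Python 3.11.15. Exact intervals came from scipy 1.17.1, sequences from pysam 0.24.0 and figures from matplotlib 3.10.9. A start-site peak had any base within 1 kb of the Ensembl canonical TSS, and gene-body peaks lay in the gene outside that window. Of 20162 protein-coding genes, 281 lacked a canonical TSS on this build and stayed out of the counts. The counting was tested on simulated data, where 400 of 400 planted start peaks among 2000 genes were found.

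Named genes were up to 4 per role with the highest-scoring start-site peaks, those with the widest ones, with most or the highest-scoring body peaks, with a peak at another start only, with a shared start and a peak, and a fixed list of genes known from cancer cells or REST. Other genes were named after their values were seen. The channel genes, the roles and the gene lists were chosen with earlier results of these data known. The length classes, GC bands, 200 kb loci, the split of the other-channel list and the distances of REST elements to peak centres were added after the data were examined. Opposite-strand lncRNA starts, distances to the nearest peak and the share of peaks holding a REST element were likewise not set in advance. Alternatives changed the window, the TSS set, the score minimum, the width limit and the use of midpoints. A few genes and sequences are not reported here.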

Additional observations from a re-analysis of the deposited data

How the results depend on the processing

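Of 85 alternative counts, 64 stayed within 1.5 times the reported count and 21 moved further. The calcium beta genes, among the 64, changed side relative to all genes under a score minimum. Their reported 3 of 4 lay above the 55.6% of all genes. With scores of at least 100, their 2 of 4 lay just below the 51.3% of all genes. Most of the 21 came from a score minimum. With scores of at least 100, start-site peaks remained at 13 channel genes (9.70%, all genes 51.3%), and the counts were 8 for potassium, 4 for calcium, 10 for CpG-rich, 3 for CpG-poor, 5 for voltage-gated potassium pore, 1 for inward rectifier, 1 for tandem-pore and 0 for calcium alpha1 genes, with 13 genes having body peaks only. At or above the median score of 205.87, 9 channel genes were left (6.72%, all genes 43.6%), with 7 potassium, 1 calcium, 9 CpG-rich and 0 CpG-poor genes. The CpG-poor count was 3 where the peak had to cover the TSS, 10 with 5 kb either side and 9 with any TSS. With any TSS, potassium auxiliary genes had 3 and alpha2delta genes 2. With the peak midpoint within 1 kb, alpha1 genes had 0.

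For all channel genes, the count was 20 where the peak had to cover the TSS, 21 within 500 bp, 32 within 5 kb, 32 with any TSS, 21 by midpoint and 25 without the widest 1% of peaks. No paired analysis was possible because there was only 1 library of each kind, which also leaves no replicate to drop. Depth is unknown, so a missing peak at a weak site was not told apart from too few reads.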

Other observations

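Body peaks were present at 13 of 26 calcium channel genes (50%, interval 29.9 to 70.1), 14 of 95 potassium channel genes (14.7%, interval 8.30 to 23.5) and 1 of 13 sodium channel genes (7.69%, interval 0.195 to 36.0), against 28.2% of all protein-coding genes. The difference between families was not tested. Median gene lengths were 113 kb for calcium, 43.5 kb for potassium and 117 kb for sodium channel genes. Per 100 kb of gene body there were 0.375 peaks in calcium, 0.145 in potassium and 0.0724 in sodium channel genes, against 0.729 in all protein-coding genes. That value is not matched for length, and density falls with gene length. All protein-coding genes had 1.09 per 100 kb at 30 to 100 kb, 0.426 at 100 to 300 kb and 0.0987 over 300 kb. The families were not compared within length classes. The calcium counts include 6 peaks of CACNA1A and the peaks at starts of DCP1A and DCP1B.

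Of the 25 channel genes with a start-site peak, 4 also had a peak in the body, and all 4 were calcium channel genes. They were CACNA1H, CACNB1, CACNB3 and CACNG6, named after their values were seen. Of all protein-coding genes with a start-site peak, 4291 of 11063 had both.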
